A study of Mus musculus with 6 samples.

Results

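The Rab genes encode the Rab GTPases, the largest branch of the Ras superfamily of small GTPases. Their transcripts were followed in cultured mouse podocytes whose hairpin targets Tug1, a long noncoding RNA, and in podocytes with a control hairpin. Members were all non-control probes on the array whose transcript accession belongs to a mouse gene with the symbol Rab, a number and at most 1 letter, which leaves out partners such as Rab3gap1. The rule found 57 genes with 80 probes, of 32451 genes and 39429 probes on the array. The RefSeq table holds 59 such genes, and Rab36 and Rab44 had no probe by this rule. Probes entered the test where 1 or more of the groups had both arrays well above background (the scanner software's call). This kept 54 of the 57 Rab genes, of 21473 genes in all. A gene without both shControl arrays well above background therefore entered only through a group labelled shTug1. Rab27a, Rab39 and Rab39b did not pass that filter.

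All cells were immortalized mouse podocytes with a temperature-sensitive SV40 T antigen, transduced with the lentiviral hairpin vector pGIPZ. They were grown at 33 degrees C and then differentiated at 37 degrees C for 10 days. There were 3 groups of 2 biological replicates, namely shTug1 clone 3, shTug1 clone 2 and shControl, the last with a scrambled hairpin. Each shTug1 group is 1 clone of a cell line, so what is particular to a clone and what follows from the hairpin cannot be told apart within it. Total RNA was labelled with Cy3 and each sample was hybridized to 1 one-colour Agilent mouse array. The p-values rest on the spread between the 2 replicates within each group. The difference between the clones does not enter that spread, also where their mean is compared with shControl.

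As background, a Rab protein switches between a GTP-bound form that sits on a membrane and recruits effectors, and a GDP-bound form that is held in the cytosol. Guanine nucleotide exchange factors (GEFs) load GTP, and GTPase-activating proteins (GAPs) end the active state. A prenyl group added by Rab geranylgeranyl transferase with an escort protein anchors the Rab in the membrane, and GDP dissociation inhibitors (GDI) take it out again. Each Rab marks its own compartment or route. In podocytes, the foot-process cells of the kidney filter, such routes carry nephrin and other slit diaphragm proteins to the cell surface and back.

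Levels are given as log2 of the processed signal relative to the 75th percentile of that array, so 0 is a probe as bright as that percentile, and levels of different genes are not compared. The 75th percentile was 569 and 832 intensity units on the clone 3 arrays, 1055 and 949 on the clone 2 arrays, and 324 and 363 on the shControl arrays. Across the 54 Rab genes, replicate arrays correlated at r = 0.989 in clone 3, 0.983 in clone 2 and 0.957 in shControl, which describes the arrays and is not a test. By the scan identifier in the file headers, the shControl arrays shared 1 scan and the arrays labelled shTug1 another, taken here as separate slides. A difference from shControl and a difference between slides therefore cannot be told apart. The Tug1 probe that was well above background on all arrays had levels of -3.10 and -3.23 in clone 3, -1.86 and -1.88 in clone 2, and -2.88 and -2.49 in shControl. It lay below shControl in clone 3 and above it in clone 2, and neither difference passed (adjusted p = 0.321 in clone 3 and 0.0798 in clone 2 by limma). A second probe was at -6.36 and -3.58 in clone 3, -2.73 and -2.94 in clone 2, and -6.21 and -6.38 in shControl. That probe was well above background on both clone 2 arrays and 1 clone 3 array but on neither shControl array, and the remaining Tug1 probe was so on none. The Tug1 probes did not bear out the labels, and the groups are called by their labels here. Of 12 podocyte markers, 9 to 11 were well above background on each array labelled shTug1 and 10 on each shControl array. Podxl was so on 1 clone 2 array alone and Tcf21 on 1 clone 3 array alone. The summed level of the podocyte markers, in multiples of the 75th percentile, was 12.9 to 19.3 on the arrays labelled shTug1 and 33.7 to 34.4 on the shControl arrays. The summed levels of the other marker lists were also lower on the arrays labelled shTug1. They were 1.11 to 1.54 against 1.62 to 3.09 for endothelial cells (Tek, Emcn and Tie1 on no array), 215 to 321 against 552 to 564 for mesangial and stromal cells (Des and Pdgfra on no array), 27.8 to 47.6 against 97.6 to 97.9 for tubular cells (Slc12a1 on no array), and 3.57 to 5.73 against 14.4 to 29.9 for immune cells (Lyz2 on no array). A sum is carried by its brightest genes, mostly Cd2ap for podocytes, Acta2 for mesangial and stromal cells and Aqp1 for tubular cells. Not every marker followed its sum, and the stromal marker Dcn was not lower on the arrays labelled shTug1. The sums therefore do not describe every marker of a list. Under this scaling the median log2 fold change of all genes tested, mean of both clones against shControl, was also below 0, at -0.64. The part of these markers in the Rab results was not tested, and fewer cells of a type and less RNA per cell cannot be told apart.

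In the comparison of the mean of both clones with shControl, 7 Rab genes rose and 16 fell of the 54 tested (limma, adjusted p under 0.05). Across all genes tested, 10.2% rose and 30.4% fell, 40.6% in either direction, so the share of Rab genes called, 42.6%, was close to that of the array as a whole. The genes that rose were Rab23, Rab31, Rab4b, Rab2a, Rab13, Rab20 and Rab11a, with members of the early endosome and of recycling among them. Of these, Rab23, Rab31, Rab4b, Rab13 and Rab20 entered the test only through the groups where they were high. The genes that fell were Rab3a, Rab3b, Rab3c, Rab27b and Rab38 of regulated secretion and lysosome-related organelles, Rab1a, Rab6b, Rab33b and Rab43 of the Golgi, Rab4a (by its brighter probe only), Rab11b, Rab12, Rab14 and Rab15 of recycling, Rab5c of the early endosome and Rab29. The median log2 fold change was -0.40 over the Rab genes and -0.64 over all genes tested, so under this scaling a gene at 0 lay above the typical gene. All 4 arrays labelled shTug1 lay above both shControl arrays for 8 Rab genes (12.3% of all genes did so), all 4 lay below both for 22 (43.1% of all genes), and the arrays overlapped for 24. For Rab10, by its brighter probe only, and for Rab28 the clones lay on opposite sides of both shControl arrays (1.67% of all genes).

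The counts rested on single arrays. A count given without a share of all genes cannot be set against the array as a whole. Without clone 3 replicate 2, 1 Rab gene rose, Rab23, and none fell (1.09% and 0.508% of all genes; 22 of the 23 calls were lost and the directions stayed). Without clone 3 replicate 1 the counts were 3 higher and 3 lower (4.06% and 3.09% of all genes), without clone 2 replicate 1 they were 7 and 8, and without clone 2 replicate 2 they were 7 and 10. Without shControl replicate 1 they were 5 and 9 (7.63% and 15.9%), and without shControl replicate 2 they were 13 and 25 (15.1% and 51.5%). Over up to 14 alternative settings, the call was lost in 1 for Rab31, Rab11a, Rab12, Rab3b and Rab3c, in 2 for Rab38 and Rab6b, in 3 for Rab2a and Rab4b, in 4 for Rab13, Rab27b and Rab43, in 5 for Rab3a and Rab29, in 6 for Rab1a and Rab14, in 8 for Rab11b, Rab20, Rab33b and Rab4a, in 10 for Rab15 and in 11 for Rab5c. Among these settings, quantile normalization and the submitters' processed values gave nearly the same fold changes for the genes printed under both. They are therefore not separate checks. With normexp background correction 9 Rab genes rose and 27 fell (9.16% and 59.3% of all genes). Among the 46 Rab genes well above background on all 6 arrays, 2 rose and 18 fell (8.63% and 39.5%), and in the submitters' own processed values of 46 Rab genes, 3 rose and 7 fell (10.9% and 20.5%). After quantile normalization between arrays, 5 Rab genes rose and 6 fell (11.5% and 14.5% of all genes), with a median of -0.24 over all genes. The genes past the threshold then were Rab23, Rab31, Rab4b, Rab11a and Rab24, which were higher, and Rab27b, Rab38, Rab6b, Rab12, Rab3b and Rab3c, which were lower. The log2 fold changes of 10 genes that had not passed were then above 0 instead of below it, namely Rab1b, Rab2b, Rab5b, Rab6a, Rab8a, Rab19, Rab26, Rab32, Rab34 and Rab42.

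**Figure D1:**
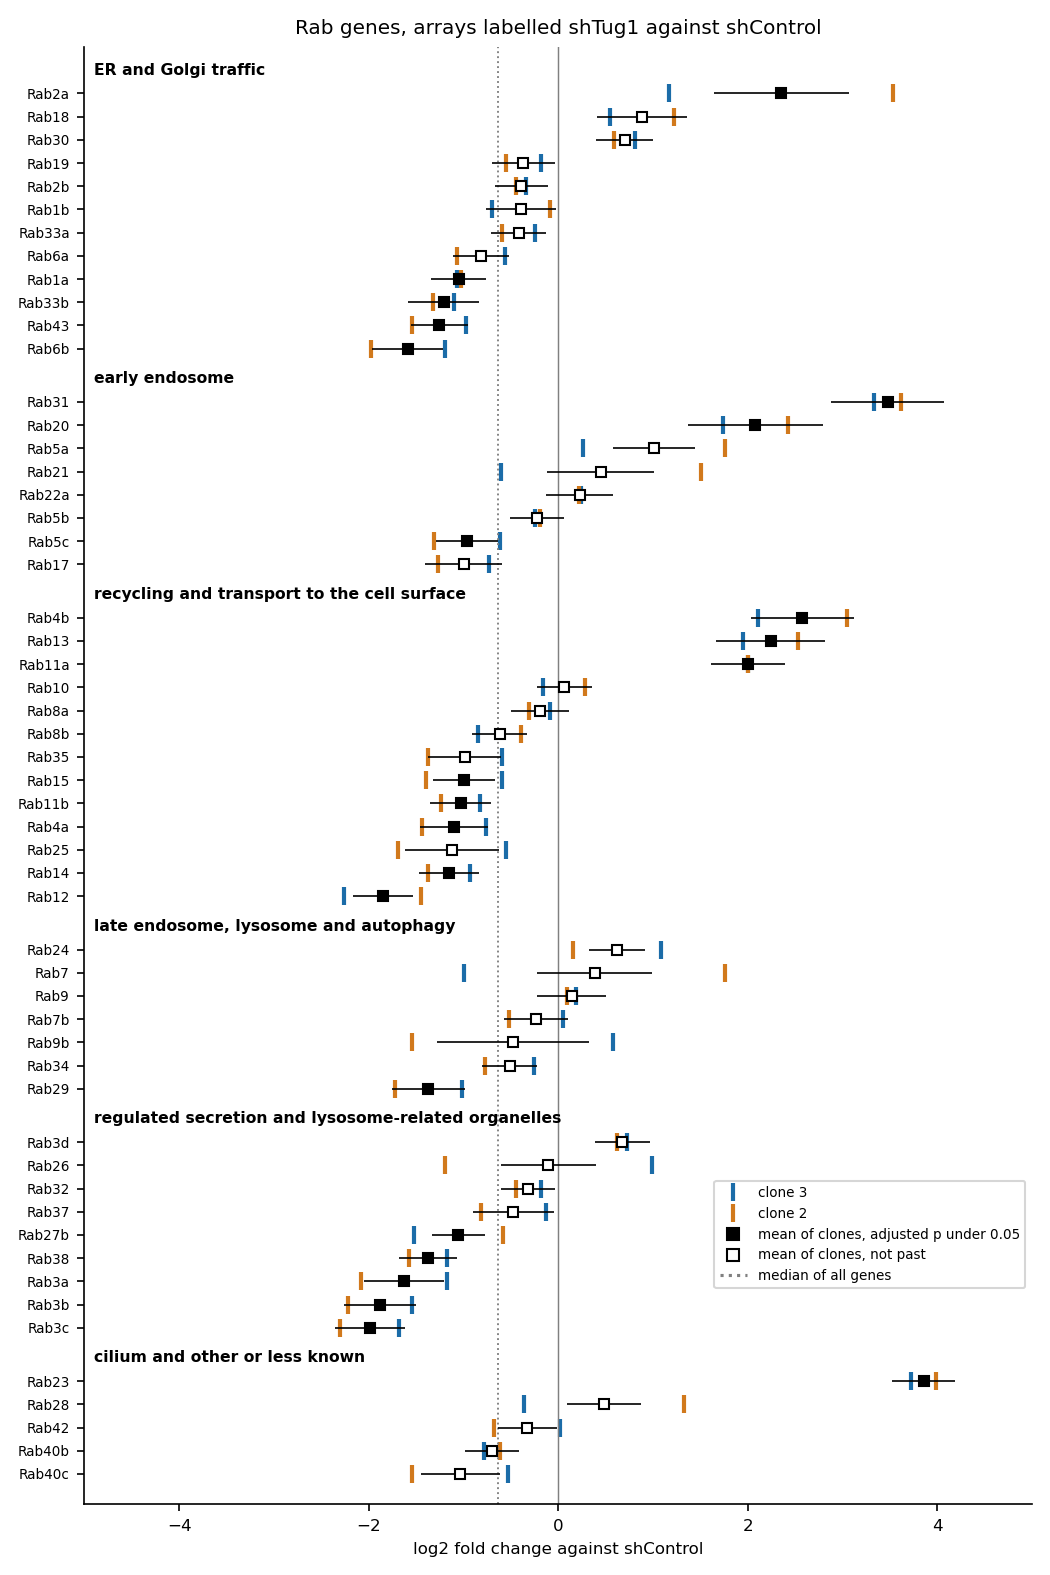
Log2 fold change of the 54 tested Rab genes against shControl, grouped by role, with squares for the mean of both clones (filled where the adjusted p is under 0.05), bars for its standard error, ticks for each clone and a dotted line at the median of all genes, -0.64. The rises reach 3.86 (Rab23, a fitted value and no measured fold, since it was not well above background in shControl) and the falls -1.99 (Rab3c), and the ticks of the clones lie farthest apart for Rab7.

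In the plot of fold changes by role, 12 tested genes belonged to endoplasmic reticulum (ER) and Golgi traffic. They ran from 2.35 for Rab2a to -1.59 for Rab6b. Of them, 1 was higher (8.33%, against 10.2% of all genes), 4 were lower (33.3%, against 30.4%) and 7 were not past the threshold. Rab1a, which drives transport out of the ER to the Golgi, had levels of 4.68 and 4.87 in clone 3, 4.84 and 4.79 in clone 2, and 6.04 and 5.65 in shControl. The 4 arrays labelled shTug1 lay close together and all below shControl. Rab1a fell by 1.05 on the log2 scale (SE 0.29, adjusted p = 0.0285 by limma), and its close relative Rab1b had a log2 fold change of -0.39 that did not pass (adjusted p = 0.395).

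Rab6b, a Golgi Rab best known from neurons, had levels of 2.93 and 3.02 in clone 3, 2.27 and 2.13 in clone 2, and 4.74 and 3.61 in shControl. All 4 arrays labelled shTug1 were below both shControl arrays, which differed from each other by more than the arrays of either clone did. The fall of Rab6b was -1.59 (SE 0.37, adjusted p = 0.0196). The broadly expressed Rab6a, which moves carriers from endosomes and the Golgi back towards the ER, gave -0.81 and missed the threshold (adjusted p = 0.0573) with arrays that did not overlap either, and was at 0.012 after quantile normalization. Rab43, a Rab of the ER and Golgi, had levels of 4.43 and 4.26 in clone 3, 3.86 and 3.70 in clone 2, and 5.53 and 5.09 in shControl, and fell by 1.25 (SE 0.30, adjusted p = 0.0199). All its arrays labelled shTug1 were below both shControl arrays. Rab33b, a Golgi Rab that binds the autophagy protein Atg16l1, fell by 1.21 (adjusted p = 0.0364).

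Rab2a, which acts between the ER, the Golgi and lysosomes, was the one gene of this group that rose. It had levels of 0.46 and 0.38 in clone 3, 2.70 and 2.86 in clone 2, and -2.24 and 0.73 in shControl. Clone 2 was above both shControl arrays, but shControl replicate 2 was above both clone 3 arrays, and shControl replicate 1 was far below them all. The mean rise of Rab2a was 2.35 (SE 0.71, adjusted p = 0.0352 by limma). Clone 3 alone gave 1.17 (adjusted p = 0.326) and clone 2 alone 3.54 (adjusted p = 0.0176). The remaining genes of the group did not pass: Rab18 of lipid droplets and the ER (0.88), Rab30 (0.70), Rab19 (-0.37), Rab2b (-0.39) and Rab33a (-0.42). After quantile normalization only Rab6b of this group was past the threshold.

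The 8 genes of the early endosome ran down from 3.48 for Rab31 to -0.999 for Rab17. Of them, 2 were higher (25%, against 10.2% of all genes), 1 was lower (12.5%, against 30.4%) and 5 were not past the threshold. Rab31, which works between the trans-Golgi and endosomes, had levels of 0.53 and 0.35 in clone 3, 0.52 and 0.92 in clone 2, and -4.07 and -1.73 in shControl. The arrays labelled shTug1 lay close together and well above shControl, where only 1 of 2 arrays was well above background. The rise of Rab31 was 3.48 (SE 0.59, adjusted p = 0.0121), and each clone passed on its own, at 3.34 in clone 3 (adjusted p = 0.0342) and 3.62 in clone 2 (adjusted p = 0.0135). Rab20, an endosomal and phagosomal Rab, had levels of -2.54 and -2.25 in clone 3, -1.62 and -1.80 in clone 2, and -5.61 and -2.66 in shControl. Its shControl replicate 2 was near the clone 3 arrays, and shControl replicate 1 was not well above background. The rise of Rab20, 2.08 (SE 0.71), was barely past the threshold (adjusted p = 0.0495) and was lost in 8 of 12 alternative settings.

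Rab5a, the Rab that drives fusion of early endosomes, had levels of 0.08 and 0.70 in clone 3, 1.83 and 1.93 in clone 2, and -0.55 and 0.79 in shControl. Clone 2 was above every other array, whereas clone 3 lay between the shControl arrays. The mean difference of 1.01 did not pass (SE 0.43, adjusted p = 0.0909), and in clone 2 alone Rab5a rose by 1.76 (adjusted p = 0.0269). Its relatives Rab5b and Rab5c gave -0.22 (adjusted p = 0.539) and -0.96 (SE 0.33, adjusted p = 0.0496). The fall of Rab5c was lost in 11 of 14 alternative settings. Rab21, which carries integrins through endosomes, gave 0.45, Rab22a gave 0.23 and Rab17, known from transcytosis in epithelia, gave -0.999 (adjusted p = 0.0795), none past the threshold. After quantile normalization only Rab31 of this group was past it.

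The 13 genes of recycling and transport to the cell surface were spread widely, with a median of -0.99. Of them, 3 were higher (23.1%, against 10.2% of all genes), 5 were lower (38.5%, against 30.4%) and 5 were not past the threshold. Rab11a, which marks the recycling endosome, had levels of 2.38 and 2.60 in clone 3, 2.39 and 2.61 in clone 2, and -0.10 and 1.09 in shControl. The clones were nearly the same, their means differing by -0.0045 (SE 0.45), and all 4 arrays were above shControl. Rab11a rose by 2.00 (4.01-fold, SE 0.39, adjusted p = 0.0142 by limma). Each clone alone also passed, clone 3 at 2.00 (adjusted p = 0.039) and clone 2 at 2.01 (adjusted p = 0.0164). The mean comparison passed in 13 of 14 alternative settings. Rab11b, its close relative, had levels of 3.99 and 3.77 in clone 3, 3.72 and 3.21 in clone 2, and 4.97 and 4.44 in shControl. Its arrays did not overlap in the other direction, and it fell by 1.03 (SE 0.32, adjusted p = 0.0393), a call lost in 8 of 14 alternative settings. Rab25, the epithelial member of that subfamily, gave -1.12 (adjusted p = 0.101).

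Rab12, which sends transferrin receptor from recycling endosomes to lysosomes, had levels of 2.13 and 1.97 in clone 3, 2.76 and 2.95 in clone 2, and 4.63 and 3.98 in shControl. It was lowest in clone 3, then clone 2, with no overlap between any of the groups. Rab12 fell by 1.85 (3.61-fold, SE 0.32, adjusted p = 0.0121), by 2.25 in clone 3 (adjusted p = 0.0252) and by 1.45 in clone 2 (adjusted p = 0.0204), and passed in 13 of 14 alternative settings. The endosomal Rab14 (-1.15, adjusted p = 0.0268) and Rab15 (-0.995, adjusted p = 0.0453) also fell in the mean comparison, with the call lost in 6 of 14 settings for Rab14 and 10 of 14 for Rab15.

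Rab4b, a Rab of rapid recycling, had levels of -3.19 and -2.89 in clone 3, -2.02 and -2.18 in clone 2, and -6.20 and -4.10 in shControl. All 4 arrays labelled shTug1 were higher, and 1 of 2 shControl arrays was well above background. The rise of Rab4b was 2.58 (SE 0.55, adjusted p = 0.0164). Rab4a, its close relative, was lower by its brighter probe (-1.10, SE 0.36, adjusted p = 0.0433) but higher by another probe, described with the probes. Rab13, which carries cargo to tight junctions, had levels of -2.28 and -1.08 in clone 3, -0.63 and -1.57 in clone 2, and -4.49 and -2.77 in shControl, again with 1 of 2 shControl arrays well above background. The clone arrays overlapped each other and lay above both shControl arrays. Rab13 rose by 2.24 (SE 0.58, adjusted p = 0.0232). The exocytic Rabs Rab8a (-0.19), Rab8b (-0.62) and Rab10 (0.06), and Rab35 of rapid recycling (-0.99), did not pass. After quantile normalization Rab11a, Rab4b and Rab12 of this group were past the threshold.

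Of the 7 genes of the late endosome, lysosome and autophagy, none rose and 1 fell, and their median was -0.24. Of all genes tested, 10.2% rose and 30.4% fell. Rab7, which brings late endosomes to lysosomes, had levels of -2.68 and -3.19 in clone 3, 0.05 and -0.42 in clone 2, and -3.11 and -0.78 in shControl. Clone 2 was above every other array, while shControl replicate 1 lay among the clone 3 arrays and shControl replicate 2 just under clone 2. The mean difference of 0.38 (SE 0.60) did not pass (adjusted p = 0.61) and was smaller than the gap between the shControl arrays. Rab29, which recruits the kinase Lrrk2, had levels of 3.48 and 3.36 in clone 3, 2.78 and 2.66 in clone 2, and 5.04 and 3.84 in shControl. All 4 arrays labelled shTug1 were below both shControl arrays, which were 1.20 apart. Rab29 fell by 1.37 (SE 0.38, adjusted p = 0.029) by its brighter probe. Rab9 and Rab9b, which return cargo to the trans-Golgi, gave 0.14 and -0.48, Rab24 of autophagy gave 0.62, Rab7b -0.24 and Rab34, known from lysosome positioning and cilia, -0.51, none past the threshold. After quantile normalization Rab29 was lost and Rab24 was past the threshold at 1.01 (adjusted p = 0.0301). Rab39 was well above background on no array and Rab39b on 1 clone 2 array alone.

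Of the 9 tested genes of regulated secretion and lysosome-related organelles, 5 fell (55.6%) and none rose, with a median of -1.05. Across all genes tested, 30.4% fell and 10.2% rose. The other gene of the group, Rab27a, was too dim to test. Of the 5 that fell, 3 are Rab3 genes, which tie secretory vesicles to the site of exocytosis in neurons and gland cells. Rab3a had levels of 4.22 and 3.70 in clone 3, 2.93 and 3.18 in clone 2, and 5.81 and 4.46 in shControl, and fell by 1.63 (SE 0.43, adjusted p = 0.0243). Rab3b had levels of 4.61 and 4.14 in clone 3, 3.64 and 3.75 in clone 2, and 6.46 and 5.38 in shControl, and fell by 1.88 (SE 0.38, adjusted p = 0.0153). Rab3c had levels of -0.19 and -0.57 in clone 3, -1.20 and -0.81 in clone 2, and 1.78 and 0.81 in shControl, and fell by 1.99 (3.97-fold, SE 0.37, adjusted p = 0.0134). For all 3 genes the order was the same, with clone 2 lowest, clone 3 above it and shControl highest, and no overlap between the groups. Rab3d, the relative known from exocrine glands, stood on the other side of shControl, at 0.68 (adjusted p = 0.0954), with all 4 arrays labelled shTug1 above both shControl arrays. Rab3b and Rab3c passed in 13 of 14 alternative settings and Rab3a in 9 of 14. Rab3a did not pass after quantile normalization.

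Rab38, which supplies melanosomes and related organelles, had levels of 2.63 and 2.38 in clone 3, 1.99 and 2.22 in clone 2, and 3.94 and 3.43 in shControl, and fell by 1.38 (SE 0.31, adjusted p = 0.0178), with no overlap between the clones and shControl. Rab32, its close relative, gave -0.32 (adjusted p = 0.379). Rab27b, which docks secretory vesicles, fell by 1.05 (SE 0.28, adjusted p = 0.0258), at -1.52 in clone 3 (adjusted p = 0.0369) and -0.58 in clone 2 (adjusted p = 0.164). The difference between the clones did not pass (-0.94, adjusted p = 0.345). Rab27a, the relative that acts in melanosomes and lytic granules, had levels of -6.38 and -5.93 in clone 3, -7.18 and -6.38 in clone 2, and -3.65 and -5.41 in shControl. It was well above background on shControl replicate 1 alone. On shControl replicate 2 it lay below -4.50, the lowest level well above background on that array, so no fold change is given. The secretory granule Rabs Rab26 (-0.10) and Rab37 (-0.47) did not pass. Rab26 had levels of -4.46 and -2.73 in clone 3, -6.13 and -5.42 in clone 2, and -4.74 and -4.43 in shControl, and was well above background on the clone 3 arrays alone. Clone 3 replicate 1 lay between the shControl arrays, and the difference between the clones did not pass (adjusted p = 0.174).

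The remaining 5 genes act in cilia or are less known. Rab23, an inhibitor of Hedgehog signalling, had levels of -2.34 and -1.61 in clone 3, -1.82 and -1.61 in clone 2, and -5.56 and -5.84 in shControl. It was well above background on all 4 arrays labelled shTug1 and on neither shControl array. A bound for it sets each shControl array to the lowest level that was well above background there, or to its own where that was higher. Rab23 was at least 5.54-fold higher in the arrays labelled shTug1 (adjusted p = 0.00594 by limma), by at least 5.05-fold for clone 3 (adjusted p = 0.0249) and at least 6.07-fold for clone 2 (adjusted p = 0.0051). Rab23 entered the test only through the groups where it was high. It passed in all 12 alternative settings run for it, but the log2 fold change, 3.86 in the fit, was 0.86 with normexp correction, below the bound. A second Rab23 probe was well above background on 2 arrays only and differed by -0.28. Rab28, a ciliary Rab, gave 0.48, and Rab42 (-0.33), Rab40b (-0.70) and Rab40c (-1.03), the last pair part of ubiquitin ligases, did not pass.

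**Figure D2:**
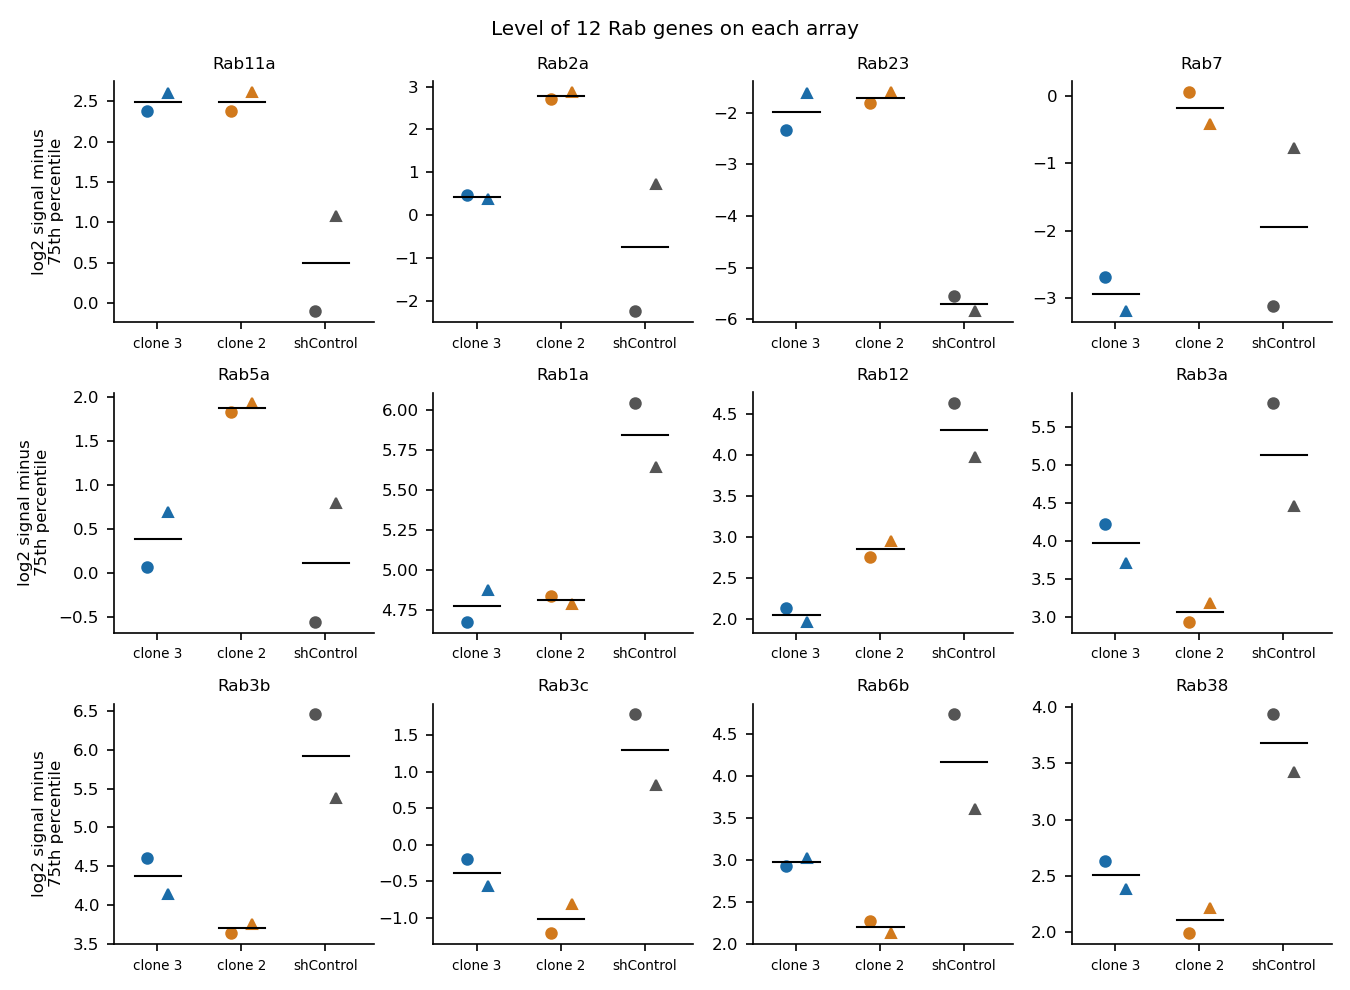
Level of 12 Rab genes on each array, as log2 of the signal relative to the 75th percentile, with circles for replicate 1, triangles for replicate 2 and a line at the group mean, each panel on its own axis. Rab11a, Rab23, Rab1a, Rab12, Rab3a, Rab3b, Rab3c, Rab6b and Rab38 separate both clones from shControl, whereas for Rab7, Rab5a and Rab2a clone 2 is highest and clone 3 overlaps shControl.

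The plot of 12 genes by array also shows the gap between the shControl replicates, which is wide for Rab2a, Rab7 and Rab3a and narrow for Rab23. Several probes of a gene gave a further check. Of the 19 Rab genes with several probes, 11 had more than 1 well above background on all 6 arrays. The probes of Rab3c were alike, at -1.99 and -2.04, as were those of Rab27b, at -1.05 and -0.80, and those of Rab3d, at 0.68 and 0.53. The probes of Rab5a were also on the same side, at 1.01 and 0.76, but they ordered the clones differently, with clone 3 below clone 2 by the brighter probe and above it by the other. In 4 genes the probes had opposite signs. For Rab4a the brighter probe had levels of 4.78 and 4.66 in clone 3, 4.08 and 4.00 in clone 2, and 5.99 and 4.97 in shControl. The other Rab4a probe had levels of -1.88 and -1.41 in clone 3, -0.73 and -0.90 in clone 2, and -3.78 and -3.13 in shControl. With every probe in the fit, the brighter one was lower, at -1.10 (adjusted p = 0.0452), and the other rose by 2.22 (adjusted p = 0.00946), so Rab4a has no settled direction. The Rab29 probes gave -1.37 (adjusted p = 0.0303 in that fit) and 0.34 (adjusted p = 0.347). The probes of Rab8a (-0.19 and 0.59) and Rab9 (-0.17 to 0.14) were closer together. The transcripts that each probe covers were not analysed here.

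**Figure D3:**
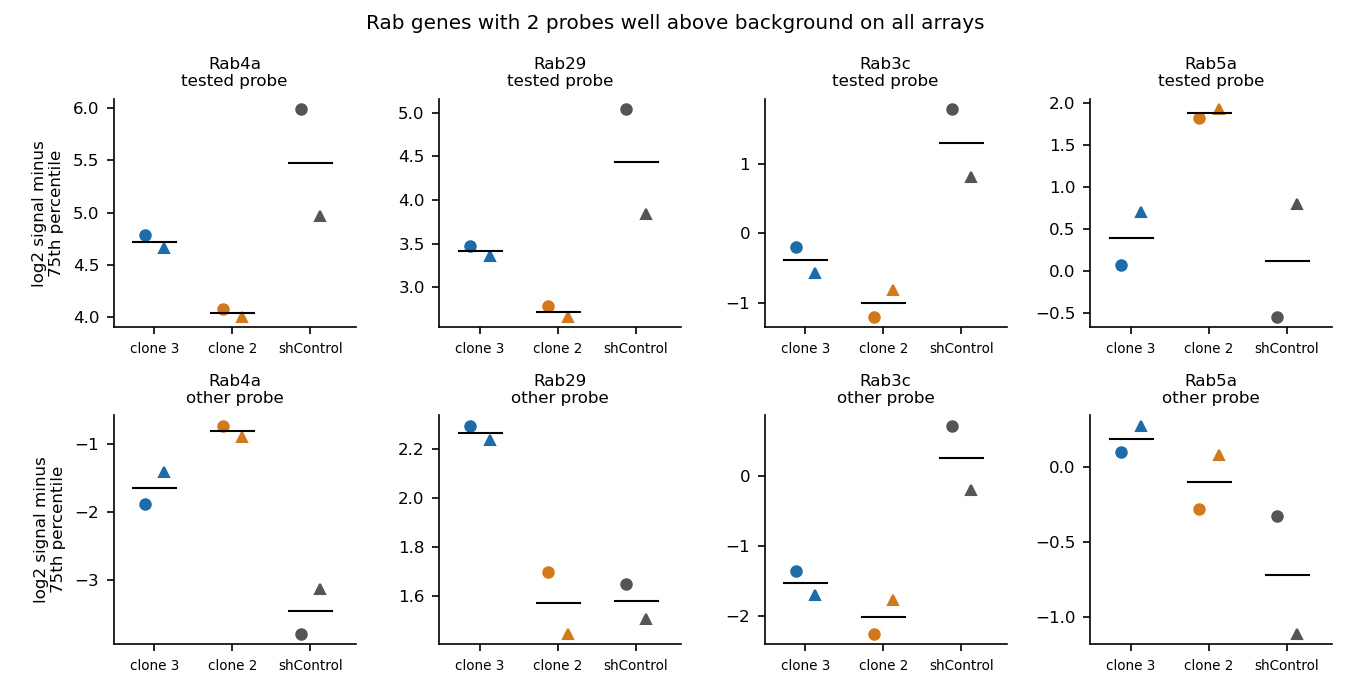
Levels of both probes of Rab4a, Rab29, Rab3c and Rab5a on each array, as log2 relative to the 75th percentile, with circles for replicate 1, triangles for replicate 2 and lines at group means. The Rab3c probes move alike (-1.99 and -2.04), whereas those of Rab4a move in opposite directions (-1.10 and 2.22).

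Close relatives within the family were then set against each other on the same array, where an offset common to the whole array cancels. A scaling that changes with brightness does not cancel. The 19 pairs with the same number, chosen after the values had been seen, cover 27 genes. An exact permutation test of 4 arrays against 2 cannot give a p below 0.0667, and 7 pairs did not overlap between shTug1 and shControl arrays and so stood at that limit. Of single genes, 12.3% lay all above and 43.1% all below, and the pairs share genes, since 3 of the 7 hold Rab3d. The difference in log2 fold change was over 1 in 8 pairs. Rab11a and Rab11b moved apart by 3.03 in the mean comparison, by 2.82 in clone 3 and by 3.24 in clone 2. Rab3d moved apart from each of the other Rab3 genes, with Rab3a at -2.30 relative to it, Rab3b at -2.56 and Rab3c at -2.67. The ratios among Rab3a, Rab3b and Rab3c changed by 0.36 or less. Rab4a against Rab4b gave -3.68 by the brighter Rab4a probe, the one at odds with the other Rab4a probe. Rab33a against Rab33b (0.79) and Rab6a against Rab6b (0.77) did not overlap either. Rab2a against Rab2b (2.74) and Rab5a against Rab5c (1.97) overlapped, since 1 clone 3 array lay below shControl replicate 2 in each.

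**Figure D4:**
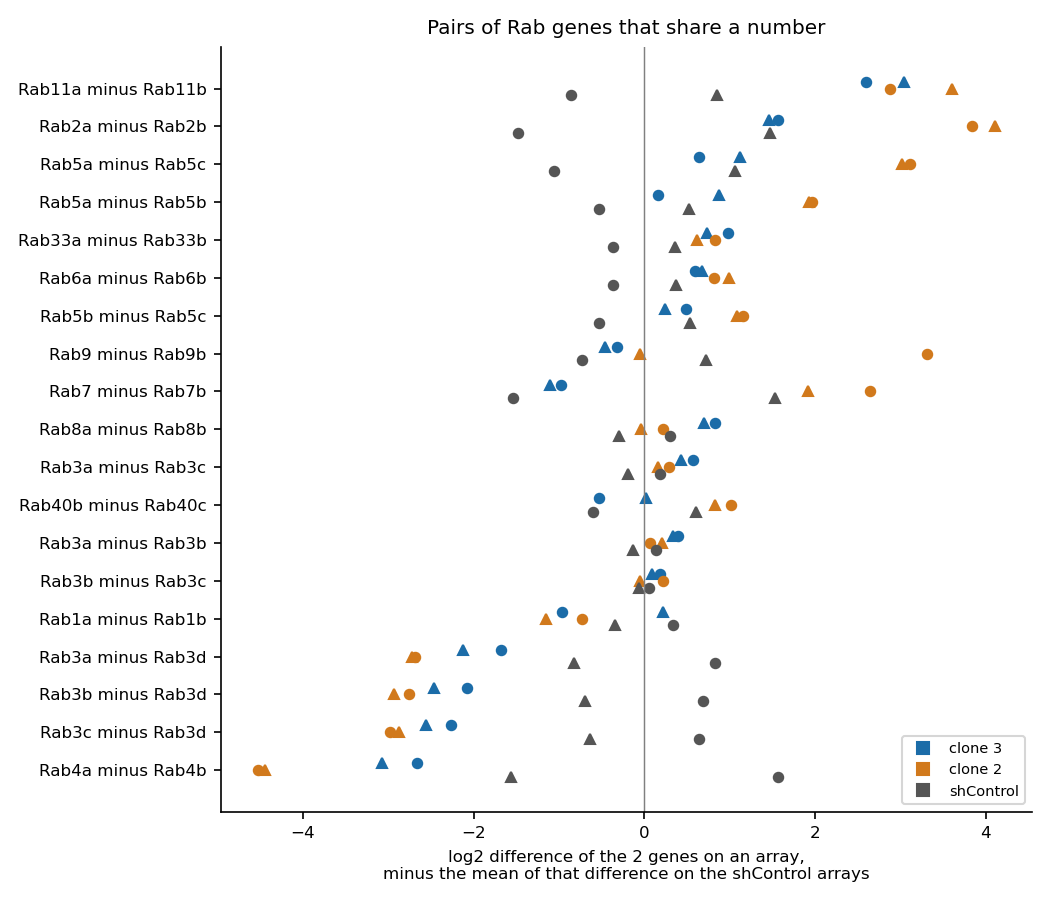
Difference in log2 level of 2 Rab genes that share a number, on each array, relative to the mean of that difference on the shControl arrays, with circles for replicate 1 and triangles for replicate 2. Rab11a against Rab11b lies above shControl on all 4 arrays labelled shTug1 (mean 3.03), and Rab3a, Rab3b and Rab3c against Rab3d lie below it (-2.30 to -2.67).

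The plot of pairs places Rab11a and Rab11b at one end and the Rab3 genes near the other, and the promoters of some of these genes are printed here. Promoters were 300 bases, 250 before and 50 after the start, taken from RefSeq (GRCm38.p6), and 48 of the 57 Rab genes had 60 of them. The letters GGGCGG, the GC box, occurred on either strand in 41 of 60 Rab promoters (68.3%), against 46.2% of the promoters of all protein-coding genes and 35.7% of those of all genes. CCGGAAG, the core of ETS family sites, occurred in 5 of 60 (8.33%), against 11.6% of the promoters of all protein-coding genes and 8.86% of all promoters. Of the promoters of Rab genes that rose, 7 of 8 held GGGCGG, and of those of genes that fell, 14 of 20. For CCGGAAG these counts were 1 of 8 and 1 of 20. A match is only a description of these letters. The Rab11a and Rab11b promoters are shown because these relatives moved in opposite directions, and those of Rab3b and Rab3c because these genes fell together, with capitals for GGGCGG and CCGGAAG on either strand and each read 5′ to 3′ on the strand of its gene.
Rab11a, chr9:64737707-64738006, minus strand: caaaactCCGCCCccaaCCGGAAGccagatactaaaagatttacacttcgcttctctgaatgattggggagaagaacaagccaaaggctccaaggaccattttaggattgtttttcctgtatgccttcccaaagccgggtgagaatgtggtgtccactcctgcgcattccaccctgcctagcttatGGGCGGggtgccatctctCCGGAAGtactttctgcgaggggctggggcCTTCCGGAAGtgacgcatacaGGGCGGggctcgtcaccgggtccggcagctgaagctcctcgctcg
Rab11b, chr17:33760437-33760736, minus strand: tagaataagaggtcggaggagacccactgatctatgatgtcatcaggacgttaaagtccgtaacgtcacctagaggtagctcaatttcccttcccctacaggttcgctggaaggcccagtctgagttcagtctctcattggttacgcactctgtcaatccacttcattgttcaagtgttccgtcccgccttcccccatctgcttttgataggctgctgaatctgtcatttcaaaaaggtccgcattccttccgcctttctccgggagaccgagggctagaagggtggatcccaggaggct
Rab3b, chr4:108878820-108879119, plus strand: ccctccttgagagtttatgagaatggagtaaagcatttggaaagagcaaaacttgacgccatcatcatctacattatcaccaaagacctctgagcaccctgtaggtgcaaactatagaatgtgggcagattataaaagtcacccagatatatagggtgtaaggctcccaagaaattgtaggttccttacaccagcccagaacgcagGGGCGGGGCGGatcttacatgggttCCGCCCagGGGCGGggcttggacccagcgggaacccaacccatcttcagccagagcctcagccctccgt
Rab3c, chr13:110280157-110280456, minus strand: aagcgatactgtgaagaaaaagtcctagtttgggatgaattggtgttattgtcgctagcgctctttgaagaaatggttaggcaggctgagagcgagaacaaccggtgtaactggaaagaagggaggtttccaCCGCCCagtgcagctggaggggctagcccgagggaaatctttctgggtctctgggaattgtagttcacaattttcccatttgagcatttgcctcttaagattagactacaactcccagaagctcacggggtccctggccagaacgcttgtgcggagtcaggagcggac
The Rab11a window holds 3 matches to GGGCGG and 4 to CCGGAAG, of which a pair on opposite strands overlap, and the Rab11b window holds neither. The Rab3b window holds 4 matches to GGGCGG, of which a pair overlap, and the Rab3c window 1, with no CCGGAAG in either.

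The partners of the Rab proteins were taken from lists drawn up from general knowledge. Of the 7 genes for escort, GDI and prenylation, 3 rose and 2 fell in the mean comparison. That was 42.9% and 28.6%, against 10.2% and 30.4% of all genes. The transferase subunits rose, Rabggtb by 3.33 (SE 0.67, adjusted p = 0.015, well above background on 1 of 2 shControl arrays) and Rabggta by 1.06 (SE 0.28, adjusted p = 0.0253), as did the escort protein gene Chm by 2.24 (SE 0.51, adjusted p = 0.0183, again 1 of 2 shControl arrays). Gdi2, which extracts Rabs from membranes, fell by 1.31 (adjusted p = 0.0273), and Rabac1, a receptor of prenylated Rabs, fell by 1.28 (adjusted p = 0.0426). With only 1 shControl array well above background, Rabggtb and Chm entered the test only through groups labelled shTug1. After quantile normalization 3 of these genes rose and none fell (11.5% and 14.5% of all genes). With normexp correction 1 rose and 2 fell (9.16% and 59.3%). Only 4 of the genes remained with the stricter filter, where 1 rose and 2 fell (8.63% and 39.5%). The submitters' processed values also held 4, of which 1 rose and none fell (10.9% and 20.5%).

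Of 45 GEF genes, 40 were tested, with 7 higher (17.5%, against 10.2% of all genes) and 16 lower (40%, against 30.4%) and a median of -0.86, against -0.64 over all genes. The largest rises were those of Trappc6b (3.81, adjusted p = 0.0465) and Trappc3 (2.31, adjusted p = 0.0168), subunits of the TRAPP complexes that act on Rab1, and of Rin1 (3.34, adjusted p = 0.00979), which acts on Rab5. Trappc6b had levels of 0.12 and 0.87 in clone 3, 2.18 and 2.11 in clone 2, and -5.28 and 0.31 in shControl. Its rise rested on shControl replicate 1, which was not well above background, and clone 3 overlapped shControl replicate 2. Other TRAPP subunits fell, namely Trappc6a (-1.50, adjusted p = 0.0272 by limma), Trappc9 (-1.48, adjusted p = 0.0337), Trappc1 (-1.25, adjusted p = 0.0394) and Trappc10 (-1.02, adjusted p = 0.027). The remaining tested Trappc genes did not pass. The largest falls were those of Dennd4a (-1.78), Sbf1 (-1.65) and Ric1 (-1.64), the last an exchange factor of Rab6. Of 38 GAP genes, 35 were tested, with 5 higher (14.3%) and 7 lower (20%) and a median of -0.40. Tbc1d9 (2.52, 1 of 2 shControl arrays), Rab3gap1 (2.20, adjusted p = 0.00981), which acts on Rab3, and Sgsm3 (1.73) rose most, and Tbc1d12 (-1.71), Tbc1d25 (-1.65) and Evi5 (-1.42) fell most.

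Of 52 effector genes, 46 were tested, with 9 higher (19.6%, against 10.2% of all genes) and 16 lower (34.8%, against 30.4%) and a median of -0.69, close to the -0.64 of all genes. The largest rises were those of Sytl2, an effector of Rab27 (3.10, adjusted p = 0.0265), Vps41, a tethering subunit of late endosomes (2.57, adjusted p = 0.00594), and Appl2. Appl2, an effector of Rab5, was well above background on neither shControl array and was at least 4.62-fold higher (adjusted p = 0.00805 by limma). It entered the test only through the groups where it was high. Sytl2 had levels of 1.48 and 1.89 in clone 3, 1.88 and 2.10 in clone 2, and -3.04 and 0.52 in shControl, so shControl replicate 1 carried most of its rise. Its relative Sytl4 went the other way (-1.24, adjusted p = 0.02 by limma), and Sytl3 (-0.49) did not pass. Sytl4 was well above background on both shControl arrays and 1 clone 3 array, and entered the test only through shControl. The largest falls were those of the Rab11 effectors Rab11fip3 (-2.10, adjusted p = 0.0164) and Rab11fip1 (-2.05, adjusted p = 0.015), and of the exocyst subunit Exoc6b (-1.99, adjusted p = 0.0147). Of the other Rab11fip genes, Rab11fip5 also fell (-1.53, adjusted p = 0.0254), and Rab11fip2 (-0.67) and Rab11fip4 (-0.48) did not pass. After quantile normalization the counts higher and lower were 4 and 8 for GEF genes, 5 and 2 for GAP genes and 8 and 11 for effectors. Across all genes, 11.5% were higher and 14.5% lower in that setting.

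The comparisons of each clone with shControl share the shControl arrays, so their values are given side by side. Counts without a share of all genes beside them cannot be set against the array as a whole. In clone 3, 3 Rab genes rose, Rab23, Rab31 and Rab11a, and 2 fell, Rab12 and Rab27b, which was 9.26% of the 54 against 9.03% of all genes (4.35% higher and 4.68% lower). In clone 2, 9 rose and 19 fell, 51.9% against 44% of all genes (10.2% higher and 33.8% lower). Beyond the genes that rose in the mean comparison, clone 2 had Rab5a (1.76, adjusted p = 0.0269) and Rab28 (1.33, adjusted p = 0.0464). Beyond those that fell, it had Rab6a (-1.07, adjusted p = 0.0373), Rab25 (-1.69, adjusted p = 0.0457), Rab35 (-1.38, adjusted p = 0.04) and Rab40c (-1.54, adjusted p = 0.036), whereas Rab27b did not pass in clone 2. In clone 2 the counts were 14 higher and 26 lower without shControl replicate 2, 6 and 3 without clone 2 replicate 1, 6 and 7 without clone 2 replicate 2, and 6 and 6 without either clone 3 array, which enters through the shared spread. Without shControl replicate 2, clone 3 had 12 Rab genes higher and 21 lower, and without either of its own arrays it had none in either direction.

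All arrays of both clones shared 1 scan identifier, taken here as 1 slide, so slide in this sense does not separate clone 3 and clone 2. No Rab gene passed in this comparison, against 1.27% of all genes (0.345% higher and 0.922% lower). At an unadjusted p under 0.05 there were 8 Rab genes of 54, against 11.9% of all genes. Both clone 3 arrays were above both clone 2 arrays for 31 Rab genes (58.9% of all genes) and below them for 12 (16.4% of all genes). The largest differences well above background on all 4 arrays were those of Rab7, Rab2a and Rab21, all lower in clone 3. Rab7, with the levels given above, was lower in clone 3 by -2.75 (6.73-fold, SE 0.70, adjusted p = 0.147). Rab2a was lower by -2.36 (SE 0.82, adjusted p = 0.345). Rab21 had levels of -1.27 and -2.66 in clone 3, -0.0041 and 0.30 in clone 2, and -2.21 and -0.50 in shControl, and its difference was -2.11 (SE 0.65, adjusted p = 0.266). With only the 4 arrays labelled shTug1 in the fit, which leaves out the spread of the shControl pair, Rab7 (adjusted p = 0.0297) and Rab2a (adjusted p = 0.0248) passed. Leaving out either shControl array is the same test, since a lone array adds no spread. Without clone 2 replicate 2, Rab7 was at -2.98 (adjusted p = 0.0424), and Rab9b passed against a single clone 2 array that was not well above background. The Rab9b levels were -3.26 and -3.16 on the clone 3 arrays against -7.03 and -3.64 on the clone 2 arrays, of which replicate 2 alone was well above background. Among the effector genes, Wdr44, which acts with Rab11, was well above background in clone 2 alone, through which it entered the test, and was at least 3.00-fold lower in clone 3.

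The fold changes went with the gap between the shControl replicates. Of the 7 Rab genes that rose, 6 were lower in shControl replicate 1 than in replicate 2, and of the 16 that fell, 15 were higher in it. Over all genes, replicate 1 was above replicate 2 for 19.1% of those that rose, 93.3% of those that fell and 73.9% of those tested. Across the 54 Rab genes, the log2 fold change and the gap between the shControl replicates correlated at r = -0.757 (rho = -0.779), and across all genes at r = -0.652. This is a description across genes, which are not independent, and both quantities use the shControl arrays. By level across the Rab genes, shControl replicate 2 correlated with clone 3 replicate 1 at r = 0.965, and shControl replicate 1 did so at r = 0.926. Rab23 departed from the pattern, with a rise and a gap of 0.29 between shControl arrays that were both not well above background, and Rab27b was the one gene that fell with a gap below 0, -0.25.

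**Figure D5:**
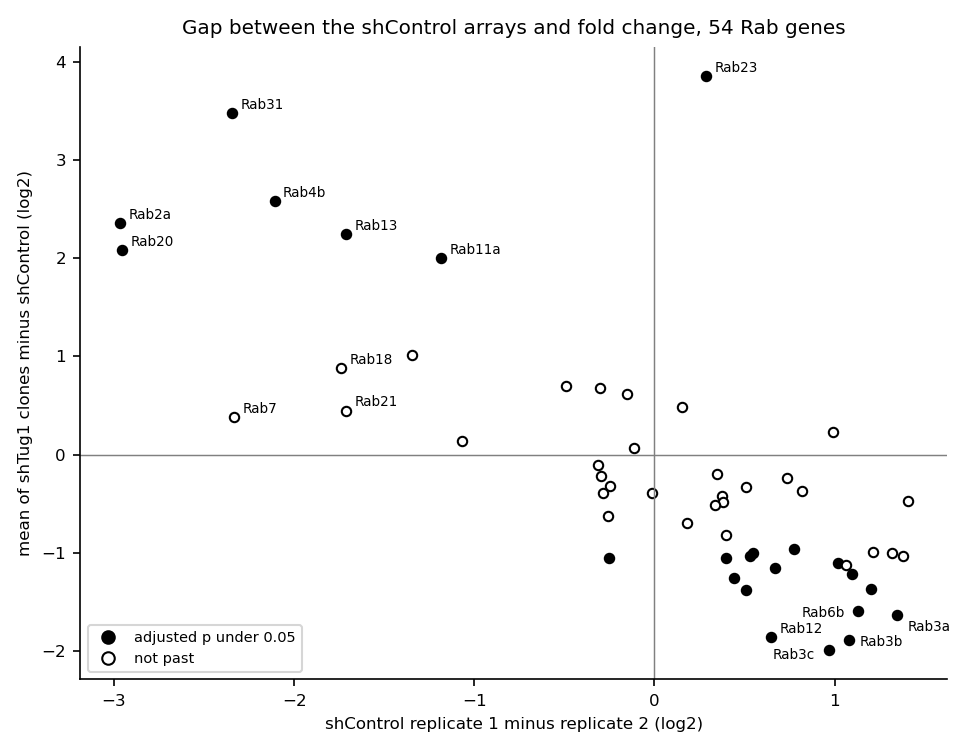
Log2 fold change of the mean of both clones against shControl for the 54 Rab genes, over the difference between the shControl replicates, with filled points past an adjusted p of 0.05. Genes with higher shTug1 levels lie mostly at a negative gap and those with lower levels at a positive gap (r = -0.757), with Rab23 the exception at 3.86 and 0.29.

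In the plot of the shControl gap, Rab2a and Rab20 stood at the far left, with gaps of -2.97 and -2.95, and Rab3a at the far right among the genes that fell, with 1.35.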

How the data were processed

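Gene expression was measured on 6 one-colour Agilent arrays, 2 for each of shTug1 clone 3, shTug1 clone 2 and shControl. The deposited scanner files hold processed signal intensity per spot, background-subtracted by Agilent Feature Extraction 11.0.1.1 per the file headers. The deposited series table holds log2 values of 19819 probes with no normalization stated in the sources used here. Its column medians were 8.98 to 9.13, and it served as an alternative. For the Rab genes printed under both, its fold changes were nearly those after quantile normalization, so these alternatives are not separate checks.

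Spots marked as outliers were left out and spots of 1 probe averaged. Levels were log2 of the processed signal minus log2 of each array's 75th percentile. A gene was represented by its brightest probe. Groups were compared with limma 3.58.1 in R 4.3.3 (a mean per group, 3 residual degrees of freedom and 4.69 from the prior), with Benjamini-Hochberg adjustment over 21473 genes and a threshold of 0.05, and the fit was tested on simulated data. The number of arrays limits the precision. Of the probes, 27234 had a gene symbol in the RefSeq table and 12195 had none and kept their own name. Alternatives were quantile normalization, median centring, normexp correction (offset 50, on median spot signals, since no mean signal column was among the files used), no filter and a stricter filter on dim probes, every probe in the fit, a replicate block, the series table, and each array left out in turn, when the lone array of a group was assumed to vary like the others.

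Genes given in detail were Rab1a, Rab3a, Rab5a, Rab7, Rab11a and Rab27a, the rises and 8 largest falls well above background on all arrays, genes with bounds, and the 3 largest differences between clones; further members are given with their role groups. The members, gene lists and rules were chosen with earlier results of these data known, and the pairs of relatives after their values were seen.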

Additional observations from a re-analysis of the deposited data

Results flagged for a closer look

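For Rab10, by its brighter probe only, and for Rab28 both arrays of clone 3 lay below both shControl arrays. Both arrays of clone 2 lay above them, so by these probes the clones were on opposite sides of shControl. Rab10, which carries Glut4 and other cargo to the cell surface, had levels of 2.11 and 2.01 in clone 3, 2.30 and 2.70 in clone 2, and 2.16 and 2.28 in shControl. The difference of clone 3 from clone 2 was -0.44 (SE 0.34), and it did not pass in limma (adjusted p = 0.443). Rab28, a Rab of the cilium, had levels of -4.08 and -3.75 in clone 3, -2.83 and -1.63 in clone 2, and -3.48 and -3.63 in shControl. Its difference between the clones was -1.69 (SE 0.45, adjusted p = 0.177), again not past the threshold. Rab28 passed in clone 2 against shControl (1.33, adjusted p = 0.0464) and not in clone 3 (-0.36, adjusted p = 0.584).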

How the results depend on the processing

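The calls rested on few arrays, and the counts of this section are given without shares of all genes. Against 7 Rab genes higher and 16 lower in the mean comparison, counts ran between 1 and 13 higher and between 0 and 25 lower when 1 array was left out. Other settings gave 2 higher (stricter filter), 3 higher and 7 lower (series table), 6 lower (quantile) and 27 lower (normexp). In clone 2 (9 higher, 19 lower) the counts without 1 array ran between 6 and 14 and between 3 and 26, and settings gave 5 higher (stricter filter), 4 lower (quantile) and 6 lower (series table). In clone 3 (3 higher, 2 lower) they ran between 0 and 12 and between 0 and 21, with 1 higher and 1 lower without a filter, 1 and 5 with the stricter filter and 9 lower with normexp. For clone 3 against clone 2 (0 and 0) they ran between 0 and 1 and between 0 and 2, with 1 lower under normexp (Rab7) and 2 lower with the arrays labelled shTug1 alone. With a replicate block the mean comparison had 7 higher and 14 lower, and clone 2 had 9 and 18. Clone 3 had 4 and 3 in that setting, and clone 3 against clone 2 had 0 and 0. Same-numbered arrays deviated together by r = -0.089 to 0.106. With 2 arrays a group, these values cannot show whether the numbers pair the samples. Of the 23 genes called, 10 remained called after quantile normalization, 20 after median centring, 21 with normexp, 17 without a filter and 20 with every probe. All genes had a median of -0.24 after quantile normalization, -0.51 after median centring and -0.29 in the series table, against -0.64. Calls that were higher made up 30.4% of the Rab calls, against 45.5% after quantile normalization. Uncalled genes changed sign as follows. Quantile normalization gave Rab8a 0.078, Rab5b 0.53, Rab32 0.14, Rab42 0.0094, Rab19 0.0050, Rab2b 0.10, Rab1b 0.25, Rab34 0.29, Rab6a 0.012 and Rab26 0.43. The series table gave Rab8a 0.078, Rab5b 0.53, Rab32 0.14, Rab42 0.0092, Rab19 0.0056, Rab2b 0.10, Rab1b 0.25, Rab34 0.29 and Rab6a 0.012. These were nearly the values after quantile normalization, so the lists are not separate checks. Normexp gave Rab28 -0.15, and median centring gave Rab26 0.020. With every probe in the fit, where a gene's value is the median of its probes, Rab8a was 0.20 and Rab4a, which had been called lower, was 0.56. Leaving out 1 array changed the sign of 10 uncalled genes, whose values ran between -0.41 and 1.31 (Rab21), -0.78 and 1.55 (Rab7), -0.39 and 0.68 (Rab9), -0.60 and 0.13 (Rab7b), -0.78 and 0.042 (Rab19), -1.17 and 0.23 (Rab37), -0.27 and 0.72 (Rab22a), -0.036 and 0.16 (Rab10), -0.53 and 0.33 (Rab26), and -1.33 and 0.37 (Rab9b). The cause of these changes was not tested. Signal over background limits what can be said of Rab23, Rab26, Rab27a, Rab39 and Rab39b.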
